A study of Mus musculus with 12 samples.

Results

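The trimethyl mark on H3K27 is written by Polycomb repressive complex 2 (PRC2) and erased by the KDM6 demethylases, and the RNA of 10 genes of these 2 opposing activities was followed in mouse blood stem and progenitor cells. The genes were Kdm6a and Kdm6b (demethylases), Ezh1 and Ezh2 (alternative catalytic subunits of PRC2), Eed, Suz12 and Rbbp7 (core subunits), and Jarid2, Mtf2 and Phf19 (accessory subunits). They were taken by gene symbol, and each symbol matched 1 of the 15366 genes in the deposited expression table. The material was bone marrow sorted by flow cytometry for LSK cells (lineage-negative, Sca-1-positive, Kit-positive) from untreated mice of the C57BL/6 strain. The labels give no age and no sex. They do not tell whether replicate libraries stem from different mice, so the tests refer to variation among libraries, part of which may be technical. Vav Cre, the control group, carried the Cre recombinase driven by the Vav promoter, which is active across blood cells. Tet2 KO carried Vav Cre with both Tet2 alleles floxed. KDM6B OE carried a human KDM6B transgene driven by the Vav promoter, and its genotype label names no Cre. The double lesion combined the human KDM6B transgene, Vav Cre and floxed Tet2. KDM6B OE against Vav Cre therefore differs by the transgene and, as labelled, by Cre. As labelled, Cre also enters every other comparison that uses KDM6B OE. These are the double lesion against KDM6B OE, the pooled comparisons by transgene and by Tet2, and the interaction of the 2 lesions. In bulk samples such as these, fewer cells of a type and less RNA per cell cannot be told apart.

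PRC2 adds methyl groups to H3K27, a mark that keeps developmental and lineage genes silent. EZH2 is the more active methyltransferase and is known to be made mainly in dividing cells, whereas EZH1 is a weaker enzyme that persists in resting cells. EED binds the finished mark and stimulates the enzyme, SUZ12 is the scaffold, and RBBP7 and its paralogue RBBP4 bind histones. JARID2 marks one form of the complex, and the Polycomb-like proteins MTF2, PHF19 and PHF1 mark the other. KDM6A (UTX) and KDM6B (JMJD3) remove the methyl groups, and UTY is the Y-linked homologue of KDM6A. In blood stem cells EZH2 and KDM6A are known as genes that are mutated in myeloid neoplasms.

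Ezh2 was the member that fell in the double lesion, to 70.3% of its level in Vav Cre, and it was also lower across the 6 libraries with the transgene than across the 6 without. Kdm6b was higher with the transgene, at 10.4 against 6.49 CPM on average. Over 22 other settings this pooled call held in 8, and that of Ezh2 in 9. How many reads of the human transgene aligned to Kdm6b was not tested. CPM is the read count of a gene over the library total as scaled by the authors, the usual counts-per-million unit, and a gene was called at an adjusted p under 0.05 over 13046 tested genes. No other member was called between genotypes, and Suz12 and Rbbp7 varied least, 1.23-fold from the lowest to the highest of the 12 libraries. Kdm6a was lower in the 4 libraries that hold Y chromosome transcripts than in the 8 that do not.

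All 10 members passed the filter of more than 1 CPM in at least 3 libraries. The number called was 0 of 10 in KDM6B OE against Vav Cre, where 0.598% of tested genes were called. It was 0 in Tet2 KO against Vav Cre, where 0.0307% were, which is 4 genes. The same-numbered libraries of these 2 groups deviate together, and with the replicate number as a block 1 gene and no member was called. In the double lesion 1 of 10 was called against Vav Cre (Ezh2, lower), where 14.9% of tested genes were called, 7.34% of tested genes as higher and 7.58% as lower. Against KDM6B OE the double lesion had 0 called members, with 0% of tested genes called, and against Tet2 KO it had 0, with 0.215% called. The targeted gene Tet2, at -1.24 ± 0.18 (SE) from KDM6B OE on the log2 scale, was itself not called there (adjusted p = 0.129, limma). The lack of calls in that comparison therefore does not show equal levels. The comparison of the 6 libraries with the transgene and the 6 without called 2 of 10 (Ezh2 lower, Kdm6b higher), where 4.35% of tested genes were called, 2.52% as higher and 1.83% as lower. The comparison of the 6 libraries with floxed Tet2 and the 6 with intact Tet2 called 0 of 10, where 0.207% were called. The interaction, which asks whether the double lesion departs from the sum of the 2 single differences, called 0 members and 0% of genes. In limma 771 genes (5.91%) had an unadjusted p under 0.05 between the double lesion and KDM6B OE, and 578 (4.43%) in the interaction, and 0 members did in either. edgeR called 0 genes in both and DESeq2 called 20 and 5, none of them a member. In the other comparisons without a called member, edgeR and DESeq2 called no member either. Unadjusted p-values under 0.05 were found for 2 members in KDM6B OE against Vav Cre (Ezh2 and Kdm6b), beside 21.6% of tested genes, and for 1 in Tet2 KO against Vav Cre (Ezh1), beside 13.5%. They were found for 2 in the double lesion against Tet2 KO (Ezh2 and Kdm6b), beside 10.6%, and for 1 in the comparison by Tet2 (Ezh2), beside 14.7%. These comparisons share libraries, so a member's values in them are not independent of each other. The median difference of the 10 members was -0.01 on the log2 scale in the double lesion against Vav Cre and -0.02 with against without the transgene, beside 0.05 and 0.02 over all tested genes.

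**Figure D1:**
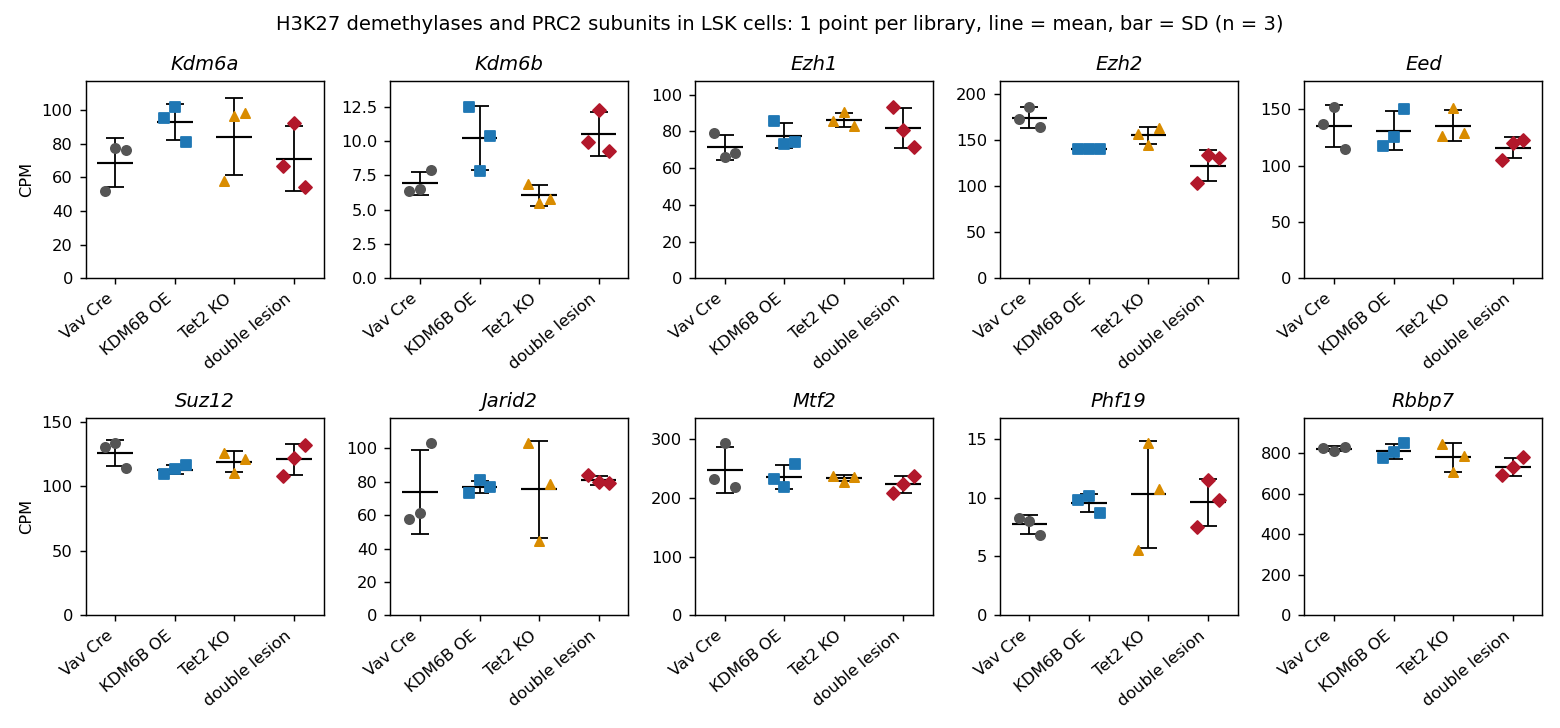
Level of each member in CPM (vertical axis, from 0) in the 4 genotype groups, with 1 point per library, the mean as a line and the SD as a bar (n = 3). Ezh2 runs from 103 to 134 CPM in the double lesion and from 164 to 186 CPM in Vav Cre, and Jarid2 runs from 44.8 to 103 CPM within Tet2 KO, its whole range over the 12 libraries.

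The largest pool of member RNA per transcript length was that of Rbbp7, with a median over 12 libraries of 355 CPM per kb of the longest annotated transcript. Eed (60.7), Mtf2 (57.2) and Ezh2 (51.2 CPM per kb) followed, with ranges over the libraries that overlap. Suz12 was at 27.1 CPM per kb, Ezh1 at 15.7 to 22.2 over the libraries, Kdm6a at a median of 13.4 and Jarid2 at 9.42 CPM per kb, the ranges of Ezh1 and Kdm6a and those of Kdm6a and Jarid2 overlapping. Phf19 (2.47) and Kdm6b (1.18 CPM per kb) were lowest, and their ranges overlap too, at 1.48 to 3.90 and 0.821 to 1.88 CPM per kb. With the length of all exons in place of the longest transcript, Mtf2 came before Eed and Suz12 before Ezh2. By their medians per transcript length the 2 demethylases lay below the catalytic and core subunits of PRC2, and mouse Kdm6b was the lowest of the 10.

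Promoter sequences are shown for the 3 members whose window holds an E2F motif, since Ezh2 is the member called in both comparisons and E2F factors are known to drive genes of the division cycle. Each runs 5′ to 3′ on the gene's own strand from 250 bases before to 20 bases after the RefSeq start (GRCm38.p6), and capitals mark E2F motifs (TTTGGCGC, TTTCCCGC, TTTGCCGC or TTTCGCGC) and CCAAT boxes (CCAAT) on either strand.
Ezh2 (chr6:47595011-47595280, minus strand): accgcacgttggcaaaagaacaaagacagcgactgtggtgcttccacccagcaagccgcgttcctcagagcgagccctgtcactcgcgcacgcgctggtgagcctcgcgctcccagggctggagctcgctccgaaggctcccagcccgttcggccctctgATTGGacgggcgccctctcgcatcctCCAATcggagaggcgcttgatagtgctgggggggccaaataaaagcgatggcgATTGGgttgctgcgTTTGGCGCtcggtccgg
Suz12 (chr11:79992856-79993125, plus strand): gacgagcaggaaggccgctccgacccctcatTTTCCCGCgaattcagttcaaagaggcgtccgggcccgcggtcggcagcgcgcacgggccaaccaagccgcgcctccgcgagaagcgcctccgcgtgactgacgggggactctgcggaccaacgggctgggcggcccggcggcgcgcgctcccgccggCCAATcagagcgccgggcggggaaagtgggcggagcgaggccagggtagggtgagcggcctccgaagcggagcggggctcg
Phf19 (chr2:34913957-34914226, minus strand): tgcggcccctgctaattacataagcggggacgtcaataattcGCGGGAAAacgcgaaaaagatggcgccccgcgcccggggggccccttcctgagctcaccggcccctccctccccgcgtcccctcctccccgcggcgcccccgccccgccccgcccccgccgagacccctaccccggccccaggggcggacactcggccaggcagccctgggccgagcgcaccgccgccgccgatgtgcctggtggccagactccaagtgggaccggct
With the start counted as position 1 and the base before it as -1, the Ezh2 window held E2F letters from position 4 and CCAAT boxes from -90, -64 and -11. The Suz12 window held E2F letters from -219 and a CCAAT box from -61. In Phf19 the E2F letters lay from -208, on the opposite strand. In full windows of 300 bases, 250 before and 50 after the start, the E2F letters were in 3 of the 9 members matched by symbol, 2.26% of all 32851 windows and 4.66% of 9906 tested genes. CCAAT boxes were in 6 of the 9, against 37.4% of windows and 42.7% of tested genes. GC boxes (GGGCGG) were in 6, against 35.7% of windows and 67.7% of tested genes, so near their share in tested genes. The letters TTTGAA, known as CHR, were in 3 (17.9% and 14.3%). The CRE letters TGACGTCA were in none of the 9 (1.79% and 3.5%), nor were the AP-1 letters TGACTCA or TGAGTCA (5.20% and 4.45%). Of the G2 and M phase genes listed further below, 17 were matched, and 1 held E2F letters, 15 a CCAAT box and 12 CHR letters. Of 19 matched S phase genes, 7 held E2F letters, 12 a CCAAT box and 3 CHR letters. The Ezh2 window held no CHR letters. Motifs were sought on both strands. The E2F and CCAAT letters do not overlap in the 3 printed windows. Such matches describe the letters and show no binding, and Suz12 and Phf19, which share the E2F letters with Ezh2, were not called in any comparison.

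Kdm6b (chromosome 11, 69398508 to 69413675, mm10) is the mouse counterpart of the transgene. Its level was 6.37, 6.54 and 7.91 CPM in Vav Cre libraries 1, 2 and 3, and 6.90, 5.46 and 5.77 CPM in Tet2 KO. It was 12.5, 7.79 and 10.4 CPM in KDM6B OE, and 9.92, 12.3 and 9.30 CPM in the double lesion. KDM6B OE 2 lay just under the highest library without the transgene, Vav Cre 3, and the other 5 transgene libraries lay above every library without it. The difference with against without the transgene was 0.60 ± 0.15 (SE) on the log2(CPM + 1) scale (adjusted p = 0.0465, limma). Taken by group, it was 0.48 ± 0.22 in KDM6B OE against Vav Cre (adjusted p = 0.217), 0.53 ± 0.22 in the double lesion against Vav Cre (adjusted p = 0.107) and 0.71 ± 0.22 in the double lesion against Tet2 KO (adjusted p = 0.292). Tet2 KO was at -0.17 ± 0.22 from Vav Cre (adjusted p = 0.756).

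The Kdm6b values rest on 118 to 327 reads per library, and the pooled call ended without any 1 library other than Vav Cre 3 and Tet2 KO 1, leaving differences of 0.52 to 0.68. With each library's trend on transcript length and GC content removed the difference was 0.27 (adjusted p = 0.324). The transgene is human, and reads from it were not counted apart. How many of its reads aligned to the mouse gene was not tested. The antisense gene Kdm6bos overlaps Kdm6b, and the protocol's kit does not mark the strand. Between the groups with and without the transgene, the immediate early genes moved beside Kdm6b. They are known to be induced within minutes of stimulation or cell stress, and those encoding the AP-1 factors are among them. Of 18 listed, 17 rose with the transgene, beside 2.52% of tested genes, with a median of 1.97 on the log2 scale. Their summed level was 1341 to 2497 CPM in the Vav Cre libraries and 1476 to 3064 CPM in those of Tet2 KO. It was 7367 to 10443 CPM in KDM6B OE, and the double lesion ran from 7457 to 11281 CPM. Within groups the order was mixed. KDM6B OE 1, highest of its group in Kdm6b at 12.5 CPM, had the lowest sum, 7367 CPM, and Tet2 KO 1 stood likewise in its group. In Vav Cre and the double lesion the library highest in Kdm6b also had the highest sum. The immediate early list was chosen with earlier results of these data known. The part of the immediate early genes in the Kdm6b values was not tested. The genes most like Kdm6b over the 12 libraries were Marcksl1 (Pearson r = 0.935), Aacs (0.921) and Pilrb2 (0.903), the highest of 13036 tested genes.

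**Figure D2:**
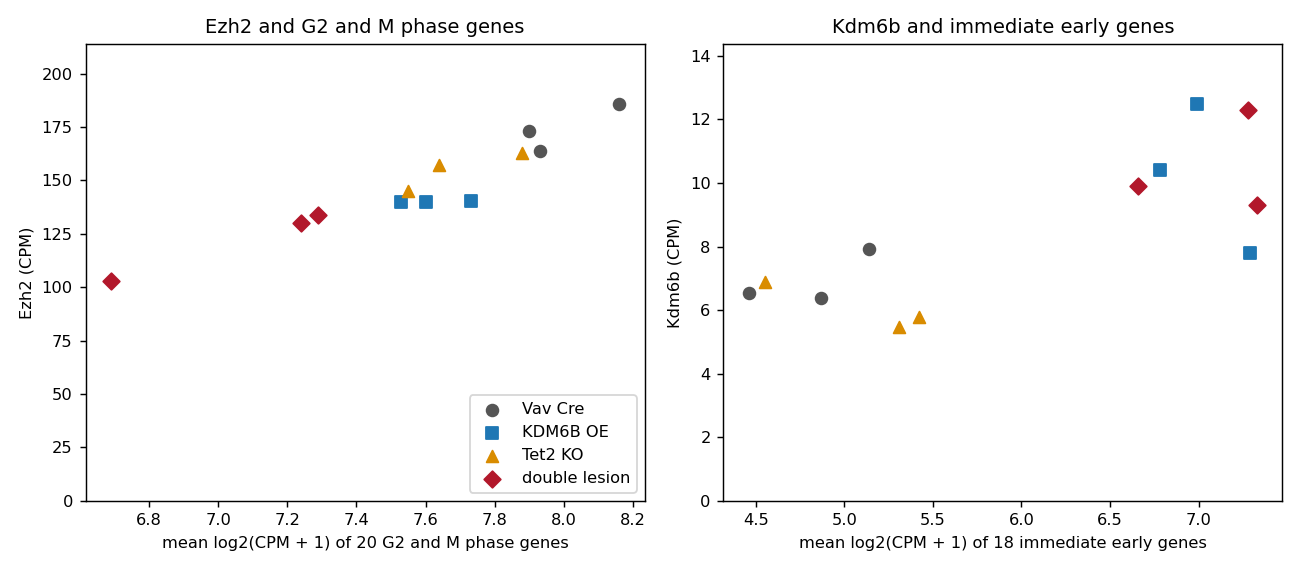
Left, Ezh2 in CPM against the mean log2(CPM + 1) of 20 G2 and M phase genes; right, Kdm6b in CPM against the mean of 18 immediate early genes, with 1 point per library in the 4 groups. The library with the lowest G2 and M phase mean, double lesion 1 at 6.69, also has the lowest Ezh2, 103 CPM, and the 6 transgene libraries lie to the right of the others in the Kdm6b plot.

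Kdm6a (X chromosome, 18162575 to 18279936) is known to be expressed from both X chromosomes of female mice. It was at 52.0, 77.6 and 76.6 CPM in Vav Cre and at 58.1, 96.6 and 98.1 CPM in Tet2 KO. In KDM6B OE it was at 95.6, 102 and 81.3 CPM, and in the double lesion at 67.0, 92.2 and 54.4 CPM. The low libraries were Vav Cre 1, Tet2 KO 1, double lesion 1 and double lesion 3. In these 4 libraries the Y chromosome genes Ddx3y, Eif2s3y, Kdm5d and Uty together averaged 58.2 to 67.5 CPM, against at most 0.355 CPM in the other 8. Xist, the RNA that coats the inactive X chromosome, was at most 3.52 CPM in those 4 and 312 to 462 CPM in the other 8. KDM6B OE has no library with Y transcripts.

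With the genotype group in the model, Kdm6a was lower by -0.63 ± 0.10 (SE) on the log2 scale in libraries with Y transcripts (adjusted p = 0.0240, limma), where 41 of 13046 tested genes were called (0.314%). The libraries were split by the Y genes and not by Kdm6a. Kdm6a ran from 52.0 to 67.0 CPM in the 4 libraries with Y transcripts and from 76.6 to 102 CPM in the 8 others. The share of tested genes that separate in this way was not counted. Of 455 tested X-linked genes 4 were called, with Xist, Eif2s3x and Kdm6a lower and Il1rapl2 higher. The 41 also held genes of other chromosomes. Among them Elane (-1.53), F13a1 (-1.56) and Mpo (-1.01) were lower, and the LSK markers Procr (0.96) and Slamf1 (0.97) were higher. The libraries with Y transcripts thus differed in more than sex-linked genes, and the part of cell make-up in the Kdm6a values was not tested. The other X-linked member, Rbbp7, differed by 0.07 ± 0.08 (adjusted p = 0.808), and no other member was called. The Kdm6a call ended without Vav Cre 1 (adjusted p = 0.196), Tet2 KO 1 (0.283), Tet2 KO 3 (0.0689) or double lesion 2 (0.114), while the difference stayed between -0.68 and -0.58. Between genotypes Kdm6a was at 0.45 ± 0.23 in KDM6B OE against Vav Cre (adjusted p = 0.276), with libraries that do not overlap (higher in this way for 11.6% of tested genes), and at 0.24 with a term for Y transcripts in the model (adjusted p = 0.258). In Tet2 KO against Vav Cre it was at 0.27 ± 0.23 (adjusted p = 0.617).

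Uty was read at 40.8 CPM in Vav Cre 1, 53.7 CPM in Tet2 KO 1 and 51.5 and 48.9 CPM in double lesion 1 and 3, and at most at 0.351 CPM elsewhere. In these 4 libraries the sum of Kdm6a and Uty was 92.8, 112, 118 and 103 CPM. In the 8 others it was 76.7 to 102 CPM. By group the sum averaged 82.5 ± 8.96 CPM (SD, n = 3) for Vav Cre, 93.1 ± 10.4 for KDM6B OE, 102 ± 8.25 for Tet2 KO and 105 ± 13.0 CPM for the double lesion. It adds reads of 2 transcripts of different length and is given as a description. The genes most like Kdm6a over the 12 libraries were Xist (r = 0.885), Kcne3 (0.877) and Bace2 (0.851). Kcne3 was read at no more than 1.79 CPM and Bace2 at 0.127 to 17.2 CPM.

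**Figure D3:**
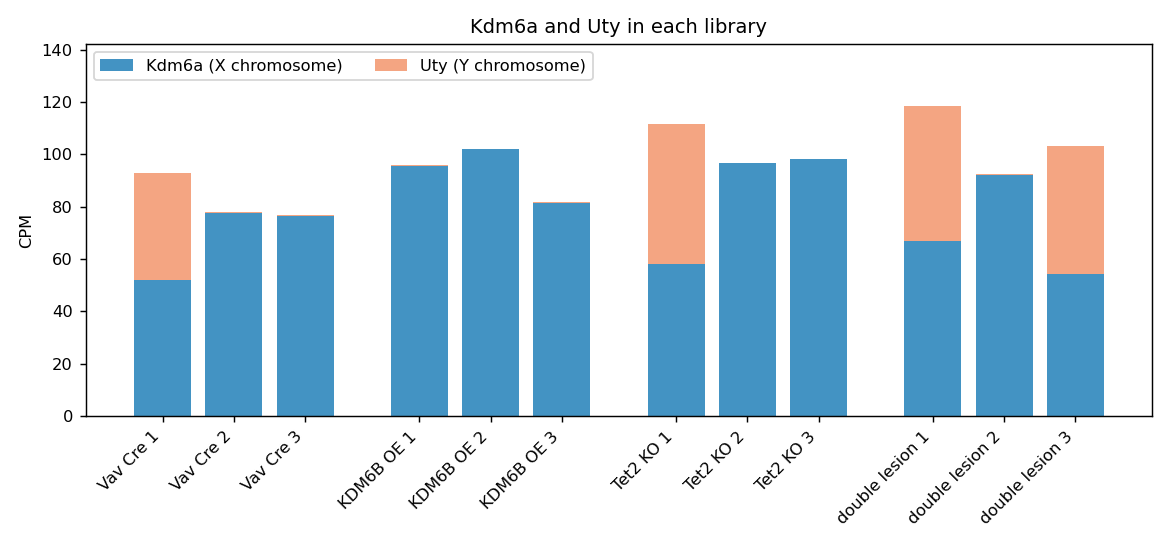
Stacked bars, from 0, of Kdm6a and Uty in CPM in each of the 12 libraries. Uty is visible in the first library of Vav Cre and of Tet2 KO and in double lesion 1 and 3, the 4 libraries in which Kdm6a is lowest, at 52.0 to 67.0 CPM.

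Ezh2 (chromosome 6, 47530139 to 47595341), whose promoter is the first of the 3 printed above, was at 173, 186 and 164 CPM in Vav Cre. It was at 139.9, 140.0 and 140.4 CPM in KDM6B OE, at 157, 145 and 163 CPM in Tet2 KO, and at 103, 134 and 130.1 CPM in the double lesion. Every library with a lesion lay below every Vav Cre library, a separation found for 10.9% of tested genes in KDM6B OE, 5.70% in Tet2 KO and 16.4% in the double lesion. All 6 transgene libraries also lay below all 6 others, which held for 0.644% of tested genes and for 1 of the 10 members. The mean fell from 174 ± 11.3 to 122 ± 17.2 CPM (SD, n = 3) in the double lesion, a difference of -0.51 ± 0.11 (SE) on the log2 scale with a 95% interval of -0.75 to -0.27 (adjusted p = 0.0137, limma). With against without the transgene it was -0.33 ± 0.08 (adjusted p = 0.0404).

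The single lesions lay between. KDM6B OE was at -0.31 ± 0.11 from Vav Cre (adjusted p = 0.146) and Tet2 KO at -0.17 ± 0.11 (adjusted p = 0.520). The double lesion was at -0.20 ± 0.11 from KDM6B OE (adjusted p = 0.906) and at -0.35 ± 0.11 from Tet2 KO (adjusted p = 0.317). With against without floxed Tet2 the difference was -0.19 ± 0.08 (adjusted p = 0.300). The interaction was -0.04 ± 0.16 with a 95% interval of -0.37 to 0.30 (adjusted p = 0.999), so a departure from the sum of the single differences was not detected within that interval.

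The fall in the double lesion was called in 19 of 23 settings. Some of these leave out a KDM6B OE or Tet2 KO library, which does not enter the difference. It stayed at -0.51 there, and only the estimate of the spread could change. The tallies over 23 settings given below hold such fits too. The call ended with only the compared groups (-0.51, adjusted p = 0.0697, limma) and without double lesion 1 (-0.39, adjusted p = 0.0706). The difference was -0.37 in the 8 libraries without Y transcripts, where double lesion 2 is the only library of its group. It was -0.42 against Vav Cre 3 alone, a fit described with Jarid2 below. Rescaled to equal library totals it was -0.43 (adjusted p = 0.0191, limma). The pooled transgene call ended without any 1 library other than Vav Cre 3, with differences from -0.36 to -0.25 over all settings. Genes of G2 and M phase moved beside Ezh2. Of 20 listed, 19 fell in the double lesion, beside 7.58% of tested genes (median -0.96 on the log2 scale), and 16 fell with the transgene, beside 1.83% (median -0.51). Summed, they reached 5348 to 6470.3 CPM in the Vav Cre libraries, while KDM6B OE ran from 4022 to 4613 and Tet2 KO from 4156 to 5147 CPM. The double lesion was lowest, at 2274 to 3390.4 CPM. Of 24 S phase genes, 9 were called lower in the double lesion, with a median of -0.20, a range of -0.81 to 0.25 and 6 positive values. The lowest were Dut at -0.81 ± 0.16 (adjusted p = 0.00911) and Tyms, which makes thymidylate, at -0.78 ± 0.15 (adjusted p = 0.00839). With the transgene 2 of the 24 were called lower (median -0.11). The G2 and M phase and S phase lists were chosen with earlier results of these data known. The part of the division cycle in the Ezh2 values was not tested. The genes most like Ezh2 over the 12 libraries were Fam64a (r = 0.978), Top2a (0.978), the topoisomerase that untangles replicated DNA, and Ckap2l (0.977), a spindle protein gene.

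Ezh1 (chromosome 11, 101191115 to 101226463), the other catalytic subunit, was at 79.2, 66.2 and 68.4 CPM in Vav Cre and at 85.4, 90.4 and 82.8 CPM in Tet2 KO. In KDM6B OE it was at 85.6, 73.3 and 74.2 CPM, and in the double lesion at 93.4, 80.6 and 71.7 CPM. All Tet2 KO libraries lay above all Vav Cre libraries, as did those of 6.87% of tested genes, and the difference of 0.27 ± 0.12 was not called (adjusted p = 0.357). In the double lesion Ezh1 was at 0.19 ± 0.12 from Vav Cre (adjusted p = 0.296). The ratio of Ezh2 to Ezh1 reads was 2.18, 2.81 and 2.39 in the Vav Cre libraries and 1.64, 1.91 and 1.89 in those of KDM6B OE. It ran from 1.60 to 1.97 in Tet2 KO, and it was 1.10, 1.67 and 1.81 in the double lesion. Every lesion library was below every Vav Cre library in this ratio, with group means of 2.46 ± 0.319, 1.81 ± 0.154, 1.80 ± 0.184 and 1.53 ± 0.377 (SD, n = 3). The ratio was built from 2 members whose values were already seen and is given as a description. Double lesion 1, the lowest in Ezh2, is the highest in Ezh1. The antisense gene Gm26625 overlaps Ezh2 exons, and reads of the 2 cannot be told apart without strand.

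The core subunits Eed (chromosome 7, 89954654 to 89980983), Suz12 (chromosome 11, 79993106 to 80034123) and Rbbp7 (X chromosome, 162760402 to 162779092) were not called in any comparison. Suz12 was at 130.1, 133 and 114 CPM in Vav Cre and at 108, 122 and 132 CPM in the double lesion, groups that overlap (-0.06 ± 0.11, adjusted p = 0.746, 95% interval -0.29 to 0.17). Eed was at 137, 152 and 115 CPM in Vav Cre and at 105, 119.7 and 123 CPM in the double lesion (-0.21 ± 0.13, adjusted p = 0.300). Rbbp7 was at 828, 809 and 829.8 CPM in Vav Cre and at 690.3, 729.6 and 779 CPM in the double lesion (-0.17 ± 0.09, adjusted p = 0.236). These 2 groups of Rbbp7 do not overlap, which held for 16.4% of tested genes in the lower direction. In KDM6B OE and Tet2 KO together Suz12 ran from 109 to 126, Eed from 117 to 151 and Rbbp7 from 707 to 848 CPM. The antisense-strand neighbours E230029C05Rik of Eed and Txlng of Rbbp7 overlap their exons and are in the table, so reads may be shared between them.

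**Figure D4:**
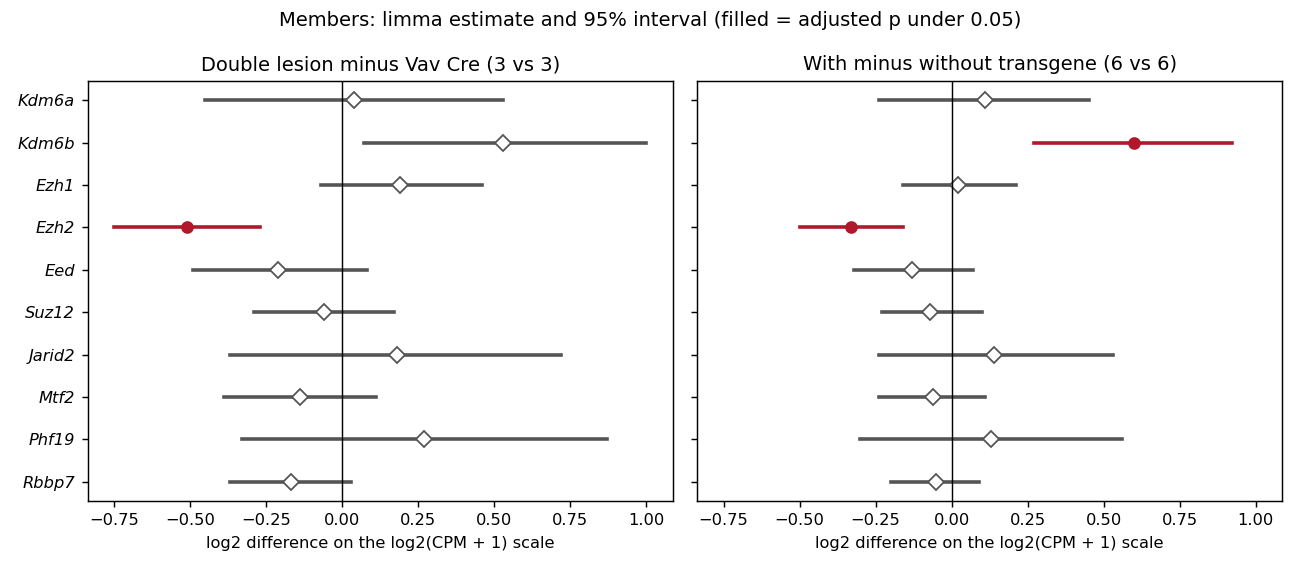
Difference of each member on the log2(CPM + 1) scale (horizontal axis) with its 95% interval, for the double lesion minus Vav Cre (left, 3 against 3 libraries) and for libraries with minus without the transgene (right, 6 against 6); filled points have an adjusted p under 0.05. Ezh2 is filled in both plots at -0.51 and -0.33, and Kdm6b on the right at 0.60.

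The accessory subunits were uncalled as well, and 2 of them varied widely within groups. Mtf2 (chromosome 5, 108065674 to 108109004, overlapped by Tmed5) ran from 218 to 293 CPM in Vav Cre and from 209 to 237 CPM in the double lesion (-0.14 ± 0.11, adjusted p = 0.427). Phf19 (chromosome 2, 34893757 to 34914026) was at 8.28, 8.05 and 6.81 CPM in Vav Cre and at 5.53, 14.6 and 10.7 CPM in Tet2 KO, so Tet2 KO 1 and 2 hold its lowest and highest value of all 12 libraries. It was at 9.82, 10.1 and 8.66 CPM in KDM6B OE and at 7.50, 11.5 and 9.80 CPM in the double lesion (0.27 ± 0.28 against Vav Cre, adjusted p = 0.535). Its values rest on 129 to 315 reads.

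Jarid2 (chromosome 13, 44729474 to 44921643) was at 57.6, 61.3 and 103 CPM in Vav Cre and at 103, 44.8 and 78.4 CPM in Tet2 KO. In KDM6B OE it was at 73.4, 80.9 and 76.7 CPM and in the double lesion at 84.1, 79.6 and 79.0 CPM (0.18 ± 0.25 against Vav Cre, adjusted p = 0.667). The 3 low libraries were Vav Cre 1, Vav Cre 2 and Tet2 KO 2. These are also the libraries in which long transcripts read lowest, with slopes of -0.08, -0.20 and -0.11 on the log2 scale per doubling of transcript length, against 0.00 to 0.10 in the other 9. GC-rich genes read lowest there too, with slopes of -0.14, -0.32 and -0.18 per 10 points of GC content, against 0.02 to 0.15 in the other 9. Without these 3 libraries the only control left is Vav Cre 3, which holds 103 CPM of Jarid2, and the double lesion was at -0.35 from it. Rbbp4, the paralogue of Rbbp7, was low in the same 3 libraries, at 343, 431 and 394 CPM against 569.6 to 714 CPM in the other 9. The part of the length and GC slopes in these values was not tested. Ezh2 in the double lesion was at -0.42 from Vav Cre 3 in that fit.

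**Figure D5:**
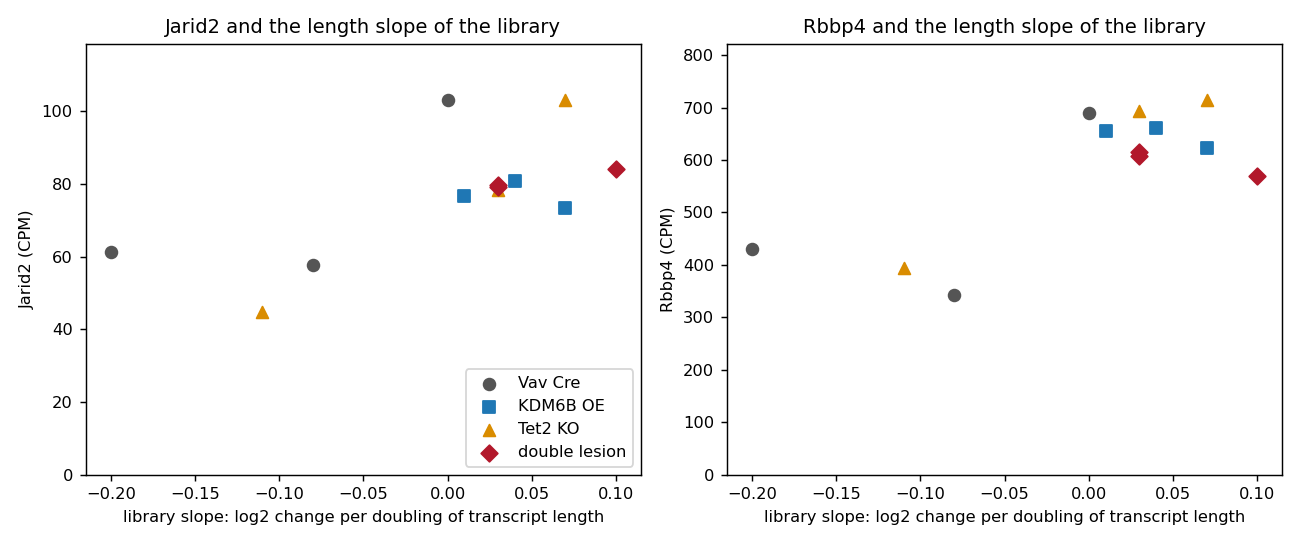
Jarid2 (left) and Rbbp4 (right) in CPM, from 0, against the slope of each library, the log2 change per doubling of transcript length relative to the mean of all libraries, with 1 point per library. Vav Cre 1, Vav Cre 2 and Tet2 KO 2 have slopes of -0.20 to -0.08 and the lowest values of both genes.

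Of 8 other PRC2 subunits listed, 7 were tested, and 2 rose in the double lesion against Vav Cre, where 7.34% of tested genes rose. Phf1, the other Polycomb-like subunit, rose from 8.41 ± 3.73 to 17.2 ± 1.79 CPM (SD, n = 3), a difference of 1.03 ± 0.28 (adjusted p = 0.0293). Epop, which bridges PRC2 and elongin and stands in the table as E130012A19Rik, rose from 4.70 ± 3.67 to 14.4 ± 2.41 CPM (1.71 ± 0.45, adjusted p = 0.0257). Epop was at 5.14, 0.823 and 8.13 CPM in the Vav Cre libraries, and it was also higher with the transgene (1.25 ± 0.32, adjusted p = 0.0453). Rbbp4, Aebp2, Lcor, Lcorl and Eloa (listed as Tceb3) were not called, and the median of the 7 in the double lesion was 0.28 against 0.05 over all tested genes. Phf1 and Epop were each called in 15 of 23 settings in the double lesion, and Epop with the transgene in 8 of 22.

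Of 11 relatives of the demethylases and partners of KDM6A in the COMPASS-like methyltransferase complex, 1 rose and 1 fell in the double lesion, a share near the 14.9% of tested genes called there. Kmt2c, an H3K4 methyltransferase, rose from 120.4 ± 24.3 to 184 ± 11.8 CPM (0.63 ± 0.19, adjusted p = 0.0413) and was called in 10 of 23 settings. Dpy30, a small core subunit, fell from 163 ± 44.0 to 102 ± 15.0 CPM (-0.64 ± 0.17, adjusted p = 0.0293) and was called in 15 of 23 settings, at -0.17 with the length and GC trends removed. Uty, Kdm7a, Kmt2d, Ncoa6, Paxip1, Pagr1a, Ash2l, Wdr5 and Rbbp5 were not called. Of 5 genes of H3K27 acetylation, Ep300, Crebbp, Hdac1, Hdac2 and Chd4, none was called in the double lesion (values from -0.25 to 0.24) or with the transgene.

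Genes known to be silenced by PRC2 stayed mostly out of reach of the test. Of 17 listed, 7 stood in the table and 3 passed the filter, Cdkn1c, Igf2bp3 and Hmga2, and none was called in the double lesion or with the transgene. Cdkn1c, an inhibitor of cyclin-dependent kinases, was at 29.1 ± 13.5 CPM in Vav Cre, and it was at 32.3 ± 3.87 CPM with the transgene alone, 29.3 ± 12.5 CPM with Tet2 loss alone and 31.2 ± 11.9 CPM with both (SD, n = 3). Hmga2, a chromatin protein of fetal stem cells, ran from 16.1 to 17.8 CPM in Vav Cre, and from 13.5 to 18.8 CPM with the transgene alone, 20.9 to 27.4 CPM with Tet2 loss alone and 19.8 to 25.5 CPM with both. Igf2, Pax6, Sox7 and Lin28b were at most 1.46 CPM in any library. The H3K27 mark itself was not measured in these samples.

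The labelled cell type and genotype were checked once. The 8 LSK markers, among them Kit and Cd34, were all tested and summed to 2008 to 3585 CPM, against 0.527 to 32.6 CPM for neutrophil markers, at most 6.49 for T cell markers and 62.9 to 181 CPM for B cell markers, the highest in Tet2 KO 2. Monocyte and macrophage markers summed to 82.8 to 215 CPM and mast cell and basophil markers to 71.0 to 257 CPM. Of the neutrophil markers 2 rose in the double lesion, with sums of 0.527 to 1.92 CPM in Vav Cre and 5.97 to 32.6 CPM there. Their part in the members' values was not tested. Tet2 averaged 82.1 and 79.0 CPM in the groups with intact Tet2 (Vav Cre, KDM6B OE) and 26.8 and 32.9 CPM in those with floxed Tet2 (Tet2 KO, double lesion). Libraries held 21935022 to 26263370 reads on listed genes. Under the authors' scaling 1 read was worth 0.0373 to 0.0463 CPM.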

How the data were processed

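Poly(A) RNA of sorted LSK cells was amplified from 10 to 20 ng of total RNA and made into libraries with SMARTer v4 and Nextera kits, per the labels' protocols. Per the submitters' processing notes, TopHat2 2.0.10, HTSeq 0.6.0 and edgeR 3.8.6 were used with the build mm10. Which annotation and strand setting HTSeq used is not given in the sources used here. Deposited values are a signal, reads divided by an effective library size of the authors, and all gave back whole reads (100% within 1e-06). They summed to 947374 to 991313 in the double lesion libraries and to 998831 to 1076728 in those of Vav Cre. The design had foreseen plain CPM as unit, and its test was kept. The members and lists were chosen with earlier results of these data known.

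The test was limma 3.58.1 (R 4.3.3, empirical Bayes with a mean trend) on log2(CPM + 1), in 13046 genes above 1 CPM in at least 3 libraries (2320 were set aside), with 1 mean per group, 8 residual degrees of freedom and Benjamini-Hochberg adjustment over all tested genes within each of 8 comparisons. The step was tested on simulated data. Fold changes on this scale understate those of low genes. Of same-numbered libraries, the 3 pairs of Vav Cre and Tet2 KO correlated at 0.30 to 0.34 in their deviations from the group means; every other pair of groups had a pair under 0.1, and the labels do not say what a number marks. A fit with a term for Y transcripts (mean of 4 Y genes above 5 CPM) was added for the X-linked members. The text names all members, the genes of the lists described, Tet2, and the 3 genes most correlated with Kdm6a, Kdm6b and Ezh2. It also names some of the genes called for the Y transcript term. Positions and lengths come from GENCODE vM21, and promoters from RefSeq on GRCm38.p6, where 9 of 10 members matched. Alternatives were edgeR 4.0.16 and DESeq2 1.42.0 on the recovered reads, no filter, a pseudocount of 0.25, rescaling to equal totals, removal of length and GC trends, only the compared groups, a replicate block, the Y term and leaving out each library. The 8 libraries without Y transcripts, and the 9 without the lowest length slopes, were chosen after seeing the data. A comparison of protein sequences between paralogues was planned and is not reported here.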

Additional observations from a re-analysis of the deposited data

How the results depend on the processing

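Of the single values recomputed, 580 kept their direction and side of the threshold, a tally that also holds the motif counts, which have neither. A further 87 kept only their direction and 20 changed sign, and none of those that changed sign was called. The 10 left are the levels per kb with the length of all exons, which were labelled as moved whatever their size. In the double lesion against Vav Cre the number of members called was 0 with only the compared groups (Ezh2 adjusted p = 0.0697), in the 8 libraries without Y transcripts and without the 3 libraries with the lowest length slope, and 0 to 1 with each replicate left out, the 0 without double lesion 1. The 8 libraries hold 1 of the double lesion, and the 9 others 1 of Vav Cre; a lone library was assumed to vary like the other groups, so a call lost there says little. With against without the transgene it was 1 without a filter and with the length and GC trends removed (Ezh2 in both), 0 in the 8 libraries and without the 3, and 0 to 2 with each replicate left out. For the Y transcript term it was 0 to 1 with each replicate left out.

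Over all groups the replicate numbers were not taken to pair the samples: 10 of 18 same-numbered pairs correlated above 0.1 (-0.15 to 0.39), and 6 of 12 libraries correlated best with their own number. With the replicate block no member's call changed in Tet2 KO against Vav Cre, the Ezh2 and Kdm6b calls held, the members called for the Y transcript term were 0 (Kdm6a -0.71, adjusted p = 0.740; 3 of the 4 libraries with Y transcripts carry the number 1), and 284, 2699 and 1516 genes were called in KDM6B OE and the double lesion against Vav Cre and with the transgene.

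Signs changed as follows in the double lesion against Vav Cre. Rescaled to equal totals, Suz12 was at 0.03. With the length and GC trends removed Ezh1 was at -0.03, Phf19 at -0.05 and Kdm6a at -0.02. Against Vav Cre 3 alone, without the 3 libraries with the lowest slope, Eed was at 0.01, Mtf2 at 0.03, Jarid2 at -0.35, Suz12 at 0.08 and Kdm6a at -0.14, and Kdm6a in Tet2 KO against Vav Cre at -0.02. With a replicate left out Suz12 ranged from -0.12 to 0.02 and Kdm6a from -0.16 to 0.21. The Ezh2 interaction was 0.00 with DESeq2 and with the trends removed, 0.01 with the Y term, 0.12 in the 8 libraries and -0.11 to 0.09 with a replicate left out. The causes were not tested.

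Counts of called genes over all settings ran, against Vav Cre, from 22 to 1934 for KDM6B OE, from 0 to 307 for Tet2 KO and from 10 to 3585 for the double lesion. They ran from 0 to 61 and 0 to 146 in the double lesion against KDM6B OE and Tet2 KO, 0 to 5 in the interaction, 16 to 2771 with the transgene and 0 to 360 by Tet2. The lows of 10, 16 and, by Tet2 and against Tet2 KO, 0 were those of the 8 libraries. The highest counts were those without Vav Cre 3 or with DESeq2, except for the double lesion against KDM6B OE (only the compared groups). Kdm6b and Phf19 rest on 118 to 327 reads per library.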
